A study of Mus musculus with 12 samples.

Results

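Cytosolic ribosomal protein genes encode the proteins of the small (40S) and large (60S) subunits of the ribosome. Members were all genes whose symbol in the authors' deposited tables is Rpl, Rps or Rplp followed by a number and at most 1 letter a, l or x, so mitochondrial ribosomal proteins, pseudogenes with other names and ribosomal protein kinases stayed out. The rule found 80 genes of 24016 gene symbols, 46 named Rpl, 3 named Rplp and 31 named Rps. For the 11 members with several transcript rows, the row with the highest mean normalized count was kept. Rps4l entered by its name although RefSeq types it as a transcribed pseudogene, and the kept rows of Rpl22, Rps27 and Rps4l carry non-coding accessions. An adjusted p was given to 77 members in every comparison of the authors' deposited tables, and to none of Rpl3l, Rpl10l and Rpl39l.

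RNA-seq covered 12 libraries of blood-forming stem and progenitor cells (HSPCs), depleted of lineage-positive cells, from C57BL/6 mice, 3 each in the genotype groups labelled Smc3, Npm1, Double and WT. Smc3 belongs to cohesin, which embraces sister chromatids and folds chromatin into loops, and Npm1 is a nucleolar chaperone of ribosome assembly that is recurrently mutated in acute myeloid leukaemia. Double stands for the group with both lesions, as the series title reads. Mice of every group, WT included, were 4 to 6 weeks old when they received 7 intraperitoneal doses of pIpC (1 mg/mL) on alternate days, and HSPCs were collected 4 to 6 weeks after that. The labels name no allele, Cre driver or sex and give no word on whether each group's 3 libraries are separate mice, so the p-values measure only the spread between these libraries, which may be technical.

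A ribosome holds 1 copy of nearly every ribosomal protein, so the mRNAs of these genes are usually made and translated in step. Their mRNAs begin with a run of pyrimidines, the 5′ terminal oligopyrimidine (TOP) tract, through which mTOR and Larp1 control their translation. The proteins are imported into the nucleus and assembled with ribosomal RNA in the nucleolus, where Npm1 resides. Unassembled Rpl5 and Rpl11 can bind Mdm2 and so stabilise p53. Blood formation is known for its sensitivity to the dose of these genes, since inherited mutations in many of them cause Diamond-Blackfan anaemia, a failure of red cell production in humans.

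The values are those of 3 comparisons with WT made by the authors, and they hold no values per library, so the error of each fold change is the standard error (±) that their fit gave. A level is the mean over the 6 libraries of a comparison of read counts divided by library size factors, and a fold change is the log2 ratio of the genotype group over WT, moderated toward 0. A gene was called changed at an authors' adjusted p under 0.05. Depth, read from the smallest values of each comparison, was 19.8 to 51.6 M reads in Smc3, 10.6 to 33.1 M in Npm1 and 27.8 to 35.4 M in Double libraries. For the WT libraries it was 10.2 to 20.8 M in the Smc3 comparison, and the mean size factor of Smc3 was 2.15 times that of WT. That ratio was 1.36 for Npm1 and 2.10 for Double. Transcripts of 4 Y-linked genes summed to a mean of 2022 in the Smc3 comparison, 3.80 in the Npm1 comparison and 2280 in the Double comparison in the authors' deposited tables. WT is in all 3, so reads of these genes came from Smc3 and Double libraries, and the presence of Y-linked reads differs along with genotype there. The Smc3 transcript itself stood at -0.02 ± 0.11 in Smc3 HSPCs and -0.03 ± 0.11 in Double HSPCs, and the Npm1 transcript at 0.22 ± 0.16 in Npm1 HSPCs, all against WT in the authors' deposited tables. With no allele named, these values check no label.

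The regions around the annotated starts of 6 members are printed because the results turn on these genes. Each line gives the 30 bases of the gene strand around the longest run of C and T near the annotated start, or around the start itself where there is no run, from RefSeq on GRCm38.p6, and capitals mark the run. Rpl37, Rpl41 and Rps16 were lower in every comparison, Rpl10 lay nearest the WT level in Smc3 HSPCs, Rps27l was the only member higher in any comparison, and Rps28 was lower in Smc3 and Npm1 HSPCs but has no such run here. No marked run begins at the annotated start, counted as base 1. The first base of the run is 29 in Rpl37, 41 in Rpl41 and Rpl10, -47 in Rps16 and -12 in Rps27l, so these runs are not shown to be TOP tracts.
Rpl37, chr15:5116631-5116660, plus strand: ggcgggggtgCTTTCTCTTCCggtctcttt
Rpl41, chr10:128549119-128549148, minus strand: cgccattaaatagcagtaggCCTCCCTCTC
Rps16, chr7:28350631-28350660, plus strand: caattcacacgTCCCCTCTCaggcttcgac
Rpl10, chrX:74270836-74270865, plus strand: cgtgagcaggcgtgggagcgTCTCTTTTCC
Rps27l, chr9:66946063-66946092, plus strand: actcctctccaCTCCTCCCCgccgcctcta
Rps28, chr17:33824548-33824577, minus strand: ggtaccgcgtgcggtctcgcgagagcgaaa

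Of the 80 members, 59 had a start region in the RefSeq promoter table. A run of at least 8 letters C or T on the gene strand, within 50 bases either side of an annotated start, was present in 51 of these 59 (86.4%), against 39.3% of 27025 genes with a start in the table. Among genes with a single listed start the shares were 83.7% of members and 35.7% of all genes. The letters CTTTCC on the gene strand in the same window stood in 32.2% of members and 5.43% of all genes. CCGGAAG, the core of an ETS factor motif, was found on either strand of the 300 bases around the start in 40.7% of members and 9.93% of all genes. These are matches of letters and not sites. Members with the run (49 with an adjusted p) had median fold changes of -0.26 in Smc3, -0.14 in Npm1 and -0.23 in Double HSPCs, and the 7 without it had -0.21, -0.08 and -0.19 in the same order, in the authors' deposited tables.

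Members summed to 4.20% of all normalized counts in Smc3 HSPCs against 4.67% in WT, to 4.20% in Npm1 HSPCs against 4.67% in WT, and to 4.18% in Double HSPCs against 4.67% in WT, as implied by the means and fold changes of the authors' deposited tables. As a sum, their normalized counts stood at 85.2% of the WT level in Smc3, 94.3% in Npm1 and 85.7% in Double HSPCs. The highest mean over the 3 comparisons was that of Rpl4, whose long loop lines the exit tunnel of the 60S, at 58492 in the authors' deposited tables. Rps28, a 40S protein by the mRNA exit channel, had the lowest mean of the members typed as protein coding and tested, at 723, and Rps4l stood at 95.7. Per kilobase of transcript, Rplp1 and Rpl8 led with mean normalized counts of 41378 and 41296. Transcripts of 1 symbol gave nearly the same value, since they count mostly the same reads. In the 10 expressed symbols with several rows the lowest row held at least 95.1% of the mean of the highest, and their fold changes differed by at most 0.02 on the log2 scale in the authors' deposited tables.

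In Smc3 HSPCs a minority of the ribosomal protein genes were called lower than in WT, by small amounts, and nearly all others lay below 0. Of 77 members 27 were lower and 0 higher per the authors' deposited table, where 6.6% of all 12750 genes tested were called lower and 7.94% higher. Among genes with a mean of at least 1000, 12.3% were called lower and 4.45% higher. The member median was -0.24 (range -0.49 to 0.00), against -0.0025 over all genes tested and -0.10 over genes with a mean of at least 1000, and 76 of 77 members lay below 0 in the authors' deposited table. The middle of the list therefore stood at 84.5% of the WT level. Once the trend of fold change on transcript length was removed, 1 of the 27, Rpl37, still passed, where 5.91% of all genes were called lower. As these are bulk samples, fewer cells of a type rich in ribosomal mRNA and less of it per cell cannot be told apart.

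The deepest falls in Smc3 HSPCs clustered near the same value. Rps12, a protein of the beak of the 40S, fell to 71.1% of WT (95% interval 59.9 to 84.3, log2 -0.49 ± 0.13, adjusted p = 0.00266) per the authors' deposited table. Rpl37, a small zinc-binding 60S protein, likewise stood at 71.1% of WT (61.2 to 82.7, log2 -0.49 ± 0.11, adjusted p = 0.000599) per the authors' deposited table. It had the smallest adjusted p of the family in this comparison. Rps29, a zinc-binding protein of the 40S head, fell by 0.49 ± 0.17 (adjusted p = 0.0379) and Rps28 fell by 0.49 ± 0.15 (adjusted p = 0.0186) per the authors' deposited table. Rpl41, one of the smallest proteins of the cell, fell to 73.0% of WT (62.3 to 85.4, log2 -0.45 ± 0.12, adjusted p = 0.00266) per the authors' deposited table. Rpl31 and Rpl35, which sit at the mouth of the 60S exit tunnel, followed at -0.38 ± 0.14 (adjusted p = 0.043) and -0.36 ± 0.11 (adjusted p = 0.0147) per the authors' deposited table. The remaining members of the 12 deepest called ones were Rpl37a at -0.38 ± 0.10, Rpl36 at -0.37 ± 0.11, Rps21 at -0.36 ± 0.13, Rpl10a at -0.35 ± 0.09 and Rpl27 at -0.35 ± 0.12 in the authors' deposited table. Their adjusted p lay between 0.00231 and 0.0372. Rpl10a forms the L1 stalk, which moves with the leaving tRNA.

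At the threshold in Smc3 HSPCs, Rpl27a was just inside (-0.26 ± 0.10, adjusted p = 0.0499) and Rpl15 just outside (-0.22 ± 0.09, adjusted p = 0.0619) per the authors' deposited table. At an unadjusted p under 0.05 the count was 50 of 77. A few members lay at the WT level. Rpl10, a late-joining 60S protein near the peptidyl site, had a fold change of 0.00 ± 0.10, Rps24 had -0.02 ± 0.12 and Rpl39, a tunnel protein, had -0.02 ± 0.11 in the authors' deposited table.

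**Figure D1:**
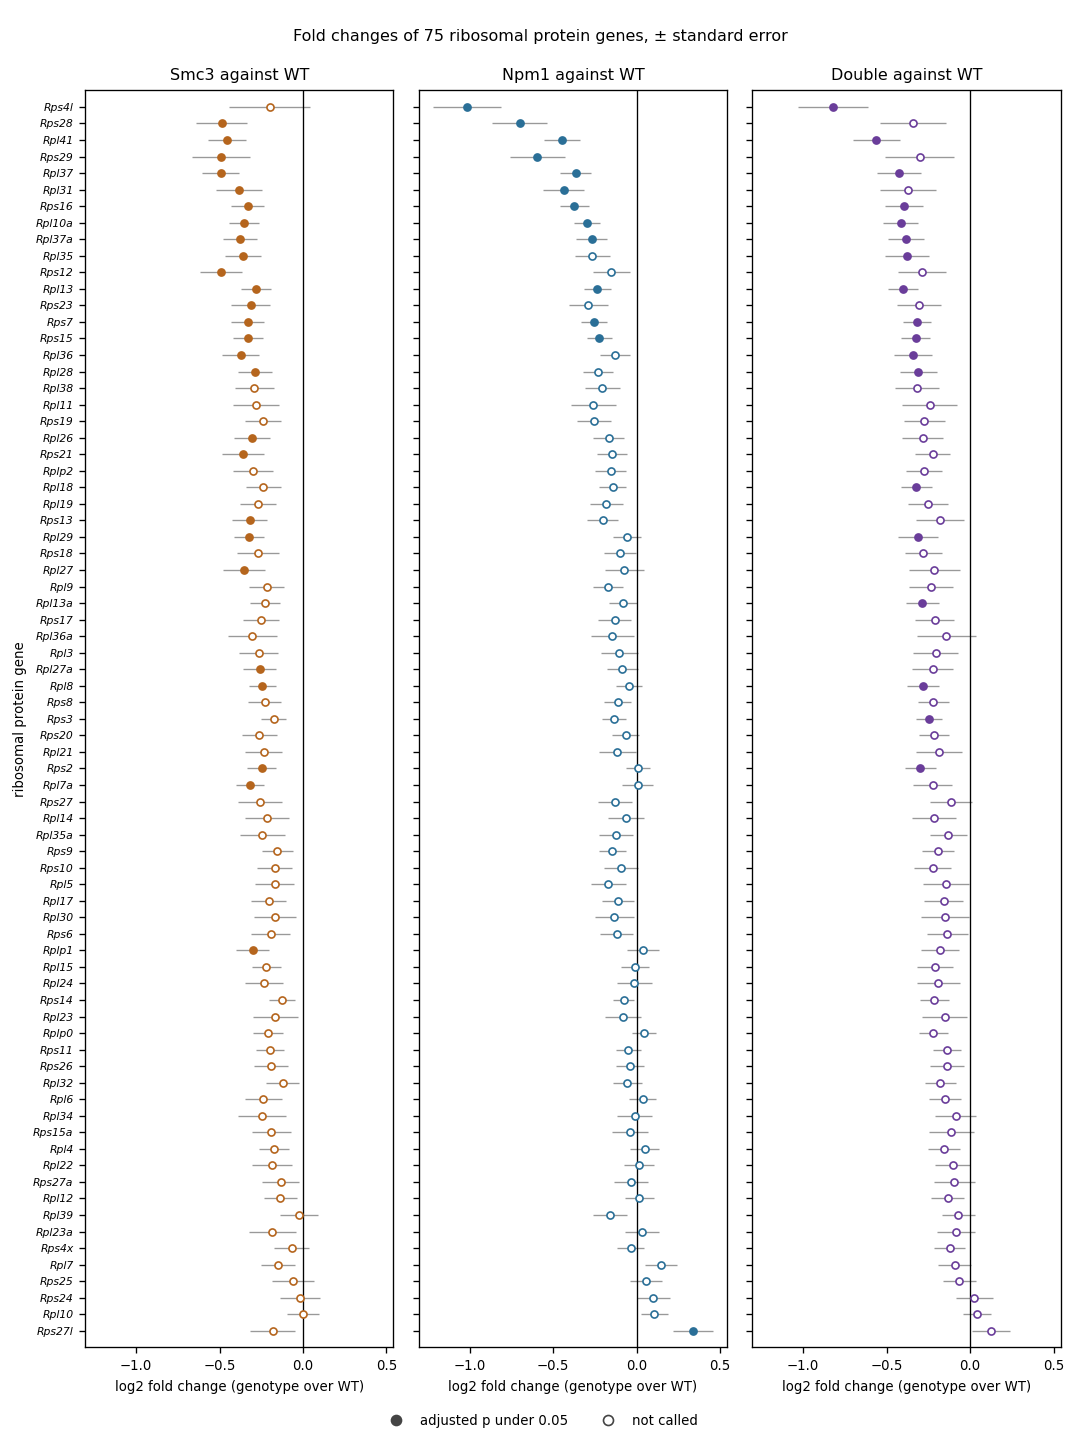
Log2 fold change of 75 of the 77 tested members (horizontal axis, genotype over WT) with its standard error, in Smc3, Npm1 and Double HSPCs, ordered by the average over the 3 comparisons; filled points have an authors' adjusted p under 0.05. Most points lie left of 0 in all panels, with Rps4l, Rps28 and Rpl41 lowest by that average and Rps27l highest in Npm1 HSPCs at 0.34.

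In Npm1 HSPCs fewer members were called at the authors' adjusted p than in Smc3 or Double HSPCs. Rps27l was called in the other direction. Of 77 members 13 were lower per the authors' deposited table, where 9% of all 12324 genes tested were called lower, and 1 member was higher, where 9.1% of all genes were. Among genes with a mean of at least 1000, 7.23% were called lower and 13.8% higher. The member median was -0.12 (range -1.01 to 0.34), against 0.01 over all genes and 0.09 over genes with a mean of at least 1000, in the authors' deposited table. Below 0 lay 63 of the 77 members. Once the trend on transcript length was removed, 9 members were lower and 1 higher, where 9.16% of all genes were called lower. With that removal 1 was lower in Smc3 HSPCs, and 8 were lower and 1 higher in Double HSPCs. With the trend on mean count removed instead, 25 were lower, against 2 in Smc3 and 5 in Double HSPCs. Of all genes, 9.14% were then called lower in Npm1, 3.66% in Smc3 and 9.20% in Double HSPCs. The order of the groups by called members therefore depended on both of these settings.

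Rps4l had the largest fall, to 49.5% of WT (95% interval 37.4 to 65.4, log2 -1.01 ± 0.21, adjusted p = 6.09e-05) per the authors' deposited table. Its functional parent Rps4x, an X-linked 40S protein, stood at 97.5% of WT (87.7 to 108.4, adjusted p = 0.778) per the authors' deposited table. The authors' counting could split reads between these near-identical copies, and Rps4l held a mean per kilobase of 101.5 against 17337 for Rps4x, so its value is uncertain. Rps28 fell to 61.6% of WT (49.1 to 77.2, log2 -0.70 ± 0.17, adjusted p = 0.000916) and Rps29 to 66.2% (52.9 to 82.9, log2 -0.59 ± 0.17, adjusted p = 0.00555) per the authors' deposited table. Both belong to the head of the 40S and have transcripts of 392 and 390 bases. Rpl41 stood at -0.45 ± 0.11 (adjusted p = 0.000876) and Rpl31 at -0.44 ± 0.12 (adjusted p = 0.00665) per the authors' deposited table. Rps16, whose tail reaches the tRNA in the peptidyl site, fell by 0.37 ± 0.09 (adjusted p = 0.000604) per the authors' deposited table. The 12 deepest of the called members also held Rpl37 at -0.36 ± 0.09, Rpl10a at -0.29 ± 0.08, Rpl37a at -0.27 ± 0.09, Rps7 at -0.25 ± 0.08 and Rpl13 at -0.23 ± 0.08 in the authors' deposited table. Rpl13 was the member called lower nearest the threshold (adjusted p = 0.0338), and Rps27l, called higher, was nearer still (adjusted p = 0.035). The called member with the smallest fall was Rps15, of the 40S head, at -0.22 ± 0.07 (adjusted p = 0.0242). Just outside the threshold stood Rpl28 at -0.23 ± 0.09 (adjusted p = 0.054) per the authors' deposited table.

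Rps27l, a paralog of Rps27 whose transcription p53 is known to raise, stood at 126.3% of WT in Npm1 HSPCs (107.3 to 148.8, log2 0.34 ± 0.12, adjusted p = 0.035) per the authors' deposited table. This call held after the length trend was removed (adjusted p = 0.00179) and did not pass with adjustment over all genes with a p (adjusted p = 0.0525), the median of all genes set to 0 (adjusted p = 0.0594), without the mean trend (adjusted p = 0.158) or without the GC trend (adjusted p = 0.26). In Smc3 HSPCs it had -0.18 ± 0.13 (adjusted p = 0.365) and in Double HSPCs 0.12 ± 0.12 (adjusted p = 0.507) per the authors' deposited tables. Rps27 itself had -0.13 ± 0.10 in Npm1 HSPCs (adjusted p = 0.365) per the authors' deposited table. Per kilobase, the mean normalized count of Rps27l was 6562 against 11880 for Rps27. Of the listed regulators, Mdm2 stood at 0.23 ± 0.09 (adjusted p = 0.0543) and Trp53 at 0.02 ± 0.10 (adjusted p = 0.932) in Npm1 HSPCs in the authors' deposited table. In Double HSPCs, where Rps27l was not called, Mdm2 was higher (0.25 ± 0.08, adjusted p = 0.0225) per the authors' deposited table.

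In Double HSPCs a minority of members were called lower, and most others lay below 0. Of 77 members 20 were lower and 0 higher per the authors' deposited table, where 9.82% of all 13217 genes tested were called lower and 8.87% higher. Among genes with a mean of at least 1000, 14.7% were called lower and 6.65% higher. The member median was -0.22 (range -0.82 to 0.12), against 0.01 over all genes and -0.06 over genes with a mean of at least 1000, and 74 of 77 members lay below 0 in the authors' deposited table. Of all members 8 were lower once the trend on transcript length was removed and 5 once the trend on mean count was. The shares of all genes called lower with these removals were 9.98% and 9.20%.

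Rps4l fell to 56.6% of WT (42.5 to 75.4, log2 -0.82 ± 0.21, adjusted p = 0.00149) in Double HSPCs in the authors' deposited table, with the same doubt about its reads. Rpl41 fell to 67.7% of WT (56.0 to 81.9, log2 -0.56 ± 0.14, adjusted p = 0.000999) per the authors' deposited table. Rpl13 had the smallest adjusted p of the family here, at 75.7% of WT (66.8 to 85.7, log2 -0.40 ± 0.09, adjusted p = 0.000278) per the authors' deposited table. Both are 60S proteins that were lower in the other comparisons as well. Rpl37 stood at -0.42 ± 0.13 (adjusted p = 0.0129), Rpl10a at -0.42 ± 0.10 (adjusted p = 0.000968) and Rps16 at -0.40 ± 0.11 (adjusted p = 0.00536) per the authors' deposited table. The 12 deepest of the called members also held Rpl37a at -0.38 ± 0.11, Rpl35 at -0.38 ± 0.13, Rpl36 at -0.34 ± 0.12 and Rps15 at -0.33 ± 0.09, with adjusted p between 0.00229 and 0.0253, in the authors' deposited table. Rpl29 was the last called member (-0.31 ± 0.12, adjusted p = 0.05 after rounding) and Rplp2 the first not called (-0.28 ± 0.11, adjusted p = 0.0513) per the authors' deposited table. Rps12, among the deepest falls in Smc3 HSPCs, was not called here at -0.29 ± 0.14 (adjusted p = 0.157) per the authors' deposited table.

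The 3 comparisons share the 3 WT libraries, so calls that recur are not independent of each other, and values are set side by side for that reason alone. Lower in every comparison were 8 members, namely Rpl10a, Rpl13, Rpl37, Rpl37a, Rpl41, Rps7, Rps15 and Rps16. Rpl31, Rps28 and Rps29 were lower in Smc3 and Npm1 HSPCs, with Double values of -0.37 ± 0.17, -0.34 ± 0.20 and -0.30 ± 0.21 that did not pass in the authors' deposited table. Called lower in Smc3 and Double HSPCs were 7 members, among them Rpl8, Rpl28, Rpl29, Rpl35, Rpl36 and Rps2. Rps2 and Rpl8, at the mRNA entry of the 40S and at the peptidyl transferase centre, had 0.01 ± 0.07 and -0.04 ± 0.08 in Npm1 HSPCs in the authors' deposited table. Called in Smc3 HSPCs alone were 9, namely Rpl7a, Rpl26, Rpl27, Rpl27a, Rplp1, Rps12, Rps13, Rps21 and Rps23. Rps4l was among 2 called in Npm1 and Double HSPCs, and Rpl13a, Rpl18 and Rps3 were called in Double HSPCs alone. The remaining 44 tested members were called in no comparison.

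Members of both subunits were called lower. Of the 40S members 11 of 31 were lower in Smc3 HSPCs, 6 in Npm1 and 7 in Double, with medians of -0.24, -0.13 and -0.22 in the authors' deposited tables. The 46 tested 60S members had 16, 7 and 13 called lower and medians of -0.24, -0.11 and -0.22 in the same order. These counts are 35.5%, 19.4% and 22.6% of the 40S members and 34.8%, 15.2% and 28.3% of the 60S members, where 12.3%, 7.23% and 14.7% of genes whose mean was at least 1000 were called lower. In the head of the 40S, 6 of 14 were lower in Smc3, 4 in Npm1 and 4 in Double HSPCs, which is 42.9%, 28.6% and 28.6%. At the 60S tunnel exit 3 of 8 were lower in Smc3 and 1 each in Npm1 and Double HSPCs. A count of 1 is 12.5% of that list. This is near the 14.7% of genes whose mean was at least 1000 in Double HSPCs and above the 7.23% in Npm1, though it rests on 1 gene.

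The stalk proteins recruit the elongation factors to the ribosome. Of Rplp0, Rplp1, Rplp2 and Rpl12 only Rplp1 was called, lower in Smc3 HSPCs at -0.30 ± 0.10 (adjusted p = 0.0222) per the authors' deposited table. Rplp0, the base of the stalk and a common reference gene in PCR, had -0.21 ± 0.09 in Smc3, 0.05 ± 0.07 in Npm1 and -0.22 ± 0.09 in Double HSPCs, with adjusted p of 0.0917, 0.696 and 0.0618, in the authors' deposited tables. The median of the 4 stalk genes was 0.03 in Npm1 HSPCs, against -0.26 in Smc3 and -0.20 in Double.

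Some members are known for roles in p53 control and anaemia. Rpl5 and Rpl11, which with 5S RNA form the particle that binds Mdm2, were called in no comparison. Rpl5 had -0.17 ± 0.11 in Smc3, -0.17 ± 0.10 in Npm1 and -0.15 ± 0.14 in Double HSPCs, and Rpl11 had -0.28 ± 0.14, -0.26 ± 0.13 and -0.24 ± 0.16, in the authors' deposited tables. Of 19 genes mutated in human Diamond-Blackfan anaemia 7 were lower in Smc3, 4 in Npm1 and 3 in Double HSPCs. The shares are 36.8%, 21.1% and 15.8%, and the last is near the 14.7% of genes whose mean was at least 1000 that were lower in Double HSPCs. Rps19, the most often mutated of them, had -0.24 ± 0.11 (adjusted p = 0.111) in Smc3, -0.25 ± 0.10 (adjusted p = 0.0608) in Npm1 and -0.27 ± 0.12 (adjusted p = 0.098) in Double HSPCs in the authors' deposited tables. Rps14, lost in the human 5q- syndrome, had -0.13 ± 0.08, -0.08 ± 0.06 and -0.21 ± 0.09 in the same order, with none called.

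Paralogs with a narrow tissue range were at or near 0. Rpl10l, a testis paralog of Rpl10, was listed at 0 in every comparison. Rpl39l, another testis paralog, had a mean of 4.04 and Rpl3l, known from heart and skeletal muscle, one of 6.11 in the authors' deposited tables, with no adjusted p. Their fold changes lay between -0.18 and 0.02 with standard errors of 0.13 to 0.23. Among relatives whose names fall outside the rule, Rpl36al was lower in Npm1 (-0.34 ± 0.11, adjusted p = 0.015) and Double HSPCs (-0.41 ± 0.14, adjusted p = 0.0179), and Rpl22l1 and Rpl7l1 were called in no comparison in the authors' deposited tables.

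Some ribosomal proteins carry other names. Fau, the precursor of Rps30, had -0.35 ± 0.09 in Smc3, -0.38 ± 0.09 in Npm1 and -0.40 ± 0.10 in Double HSPCs, with adjusted p of 0.00483, 0.00145 and 0.00114, in the authors' deposited tables. Gnb2l1, the 40S scaffold known as Rack1, was lower in Double HSPCs alone (-0.25 ± 0.08, adjusted p = 0.00941), and Rpsa was called in no comparison, in the authors' deposited tables.

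**Figure D2:**
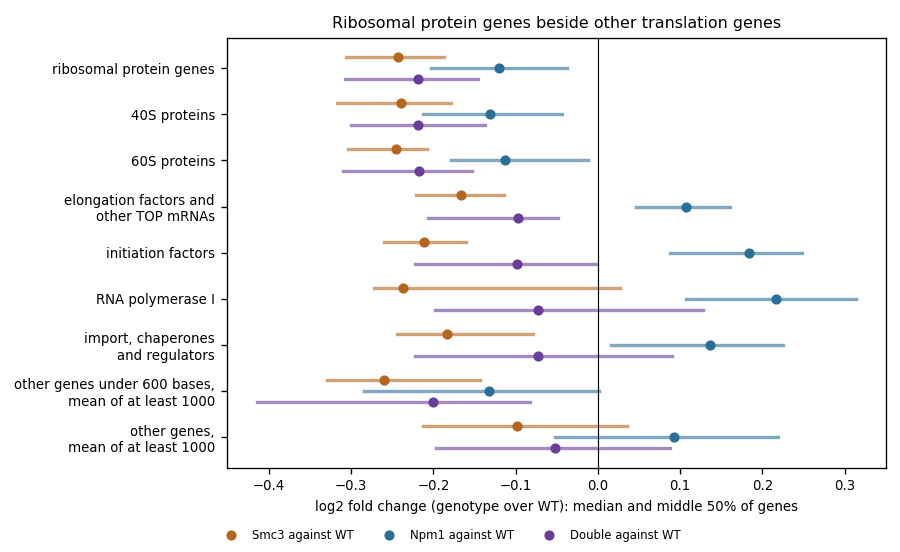
Median log2 fold change (points) and middle 50% of genes (bars) in Smc3, Npm1 and Double HSPCs over WT, for ribosomal protein genes, other genes of translation and ribosome supply, and other genes by length and level. In Npm1 HSPCs the ribosomal protein median lies at -0.12 while the medians of the 4 other translation lists lie above 0, as does that of other genes with a mean of at least 1000, at 0.09.

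Other genes of the translation machinery had medians below 0 in Smc3 and Double HSPCs and above 0 in Npm1 HSPCs, as did all genes with a mean of at least 1000 (-0.10, -0.06 and 0.09 in that order). Elongation factors and other TOP mRNAs (20 genes) had a median of -0.17 in Smc3 HSPCs with 5 lower, 0.11 in Npm1 with 1 higher, and -0.10 in Double with 2 lower, in the authors' deposited tables. These counts are 25%, 5% and 10% of the list, where 6.6%, 9.1% and 9.82% of all genes were called in those directions. Among genes with a mean of at least 1000 the shares were 12.3%, 13.8% and 14.7%. The Double count is near the share of all genes and below that of genes with such a mean, and the Npm1 count is below both. Eef2, which moves the ribosome along the mRNA, was lower in Double HSPCs (-0.36 ± 0.08, adjusted p = 0.000131) per the authors' deposited table. Eif2s3x, an X-linked subunit of eIF2, was lower in Smc3 (-0.63 ± 0.13) and higher in Npm1 HSPCs (0.35 ± 0.13). It was not called in Double HSPCs (-0.31 ± 0.13, adjusted p = 0.0695) per the authors' deposited tables. The presence of Y-linked reads differed along with genotype in the Smc3 and Double comparisons. Its part in the values of this X-linked gene was not tested. Of 21 initiation factors tested, 6 were lower in Smc3, 0 changed in Npm1 and 2 were lower in Double HSPCs, with medians of -0.21, 0.18 and -0.10. The Smc3 count is 28.6% of the list, where 6.6% of all genes and 12.3% of those with a mean of at least 1000 were lower. In Npm1 HSPCs 9.1% of all genes were higher and 9% lower. The Double count is 9.52% of the list, again near the share of all genes and below the 14.7% of genes with such a mean. Eif3b, a core eIF3 subunit, had -0.35 ± 0.08 in Smc3 (adjusted p = 0.000647) and -0.30 ± 0.11 in Double HSPCs (adjusted p = 0.046) per the authors' deposited tables. No initiation factor passed in Npm1 HSPCs by the authors' DESeq2 test, where 8 had an unadjusted p under 0.05.

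RNA polymerase I makes the ribosomal RNA that the proteins coat. Of 15 of its subunits and factors, 1 was lower in Smc3 HSPCs (Polr1c), 3 were higher in Npm1 (Polr1a, Polr1b and Twistnb) and 1 was lower in Double HSPCs (Taf1c), with medians of -0.24, 0.22 and -0.07 in the authors' deposited tables. A count of 1 is 6.67% of this list, where 6.6% of all genes were lower in Smc3 and 9.82% in Double HSPCs. A count of 3 is 20% of it, where 9.1% of all genes were higher in Npm1 HSPCs. Among genes with a mean of at least 1000 these 3 shares were 12.3%, 14.7% and 13.8%. Polr1b, the second-largest subunit, had 0.34 ± 0.12 in Npm1 HSPCs (adjusted p = 0.0323) and Twistnb 0.38 ± 0.13 (adjusted p = 0.0276) per the authors' deposited table. Of 21 importins, chaperones and regulators of ribosomal proteins, 6 were lower and 1 higher in Smc3 HSPCs. In Npm1 HSPCs 4 were higher, and in Double HSPCs 1 was lower and 1 higher. A count of 6 is 28.6% of this list, where 6.6% of all genes were lower in Smc3 HSPCs. A count of 4 is 19.0% of it, where 9.1% of all genes were higher in Npm1 HSPCs. Among genes whose mean reached 1000 that share was 13.8%. A count of 1 is 4.76%, below the 7.94% of all genes higher in Smc3 HSPCs. It is also below the 9.82% lower and 8.87% higher in Double HSPCs. The importin Kpnb1 had -0.24 ± 0.07 in Smc3 and 0.52 ± 0.13 in Npm1 HSPCs, both called, and 0.16 ± 0.13 in Double in the authors' deposited tables. The mTOR target Eif4ebp1, which restrains cap-dependent initiation, had -0.45 ± 0.14 in Smc3 and -0.79 ± 0.11 in Double HSPCs, both called, in the authors' deposited tables.

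**Figure D3:**
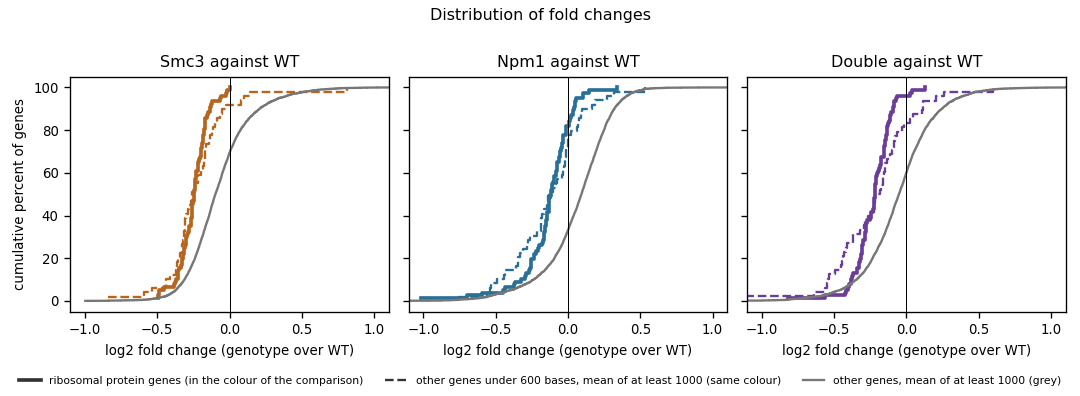
Cumulative percent of genes (vertical axis) by log2 fold change over WT in each comparison, for ribosomal protein genes (thick), other genes under 600 bases with a mean of at least 1000 (dashed) and all other genes with that mean (grey). The ribosomal protein curve lies left of the grey one and crosses the curve of other short genes, whose medians are -0.26, -0.13 and -0.20 in Smc3, Npm1 and Double HSPCs.

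Members have short transcripts and high means, and fold changes varied with length, level and GC content in some comparisons. Transcript length, from GENCODE M21 models paired by accession, had a median of 791 bases in tested members against 3318 bases in other genes with a mean of at least 1000. Other genes under 600 bases with that mean had medians of -0.26 in Smc3, -0.13 in Npm1 and -0.20 in Double HSPCs, close to those of the members, in the authors' deposited tables. Of the 49 such genes tested, 18 were lower and 1 higher in Smc3 and 11 lower and 0 higher in Npm1, and of 48 tested in Double HSPCs 16 were lower and 1 higher. The rule that chose the members did not use length. The 23 members under 600 bases had medians of -0.30 in Smc3, -0.13 in Npm1 and -0.21 in Double HSPCs, against -0.23, -0.10 and -0.22 for the 54 tested members of at least 600 bases. Across the 77 members, which share libraries and size factors, Spearman's rho of fold change with length was 0.30 in Smc3, 0.22 in Npm1 and 0.07 in Double HSPCs. The rank correlation (Spearman) with mean count was 0.25, 0.37 and 0.05 among members in the same order, and -0.20, 0.07 and -0.14 among other genes with a mean of at least 1000. With GC content of the transcript it was -0.30, -0.22 and -0.47 among members and -0.22, -0.52 and -0.45 among the other genes. The GENCODE models of Rps15a (5179 bases) and Rps20 (3706 bases) are far longer than their other transcripts and sit apart on this axis.

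After the trend of fold change on length across all genes was removed, 1 member (Rpl37) was lower in Smc3 HSPCs, with a member median of -0.14. In Npm1 HSPCs 9 were lower and 1 higher (median -0.03), and in Double HSPCs 8 were lower and 1, Rps27l at 0.30, higher (median -0.12). Of all genes, 5.91% were then called lower in Smc3, 9.16% in Npm1 and 9.98% in Double HSPCs. Removal of the trend on mean count left Rpl37 and Rps28 lower in Smc3 HSPCs, 25 members in Npm1 and 5 in Double, among them Rpl10a, Rpl13, Rpl41 and Rps4l. With this removal 3.66% of all genes were called lower in Smc3, 9.14% in Npm1 and 9.20% in Double HSPCs. The members were among the genes from which each trend was drawn. The part of length, level or GC content in the counts was not tested beyond these fits.

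**Figure D4:**
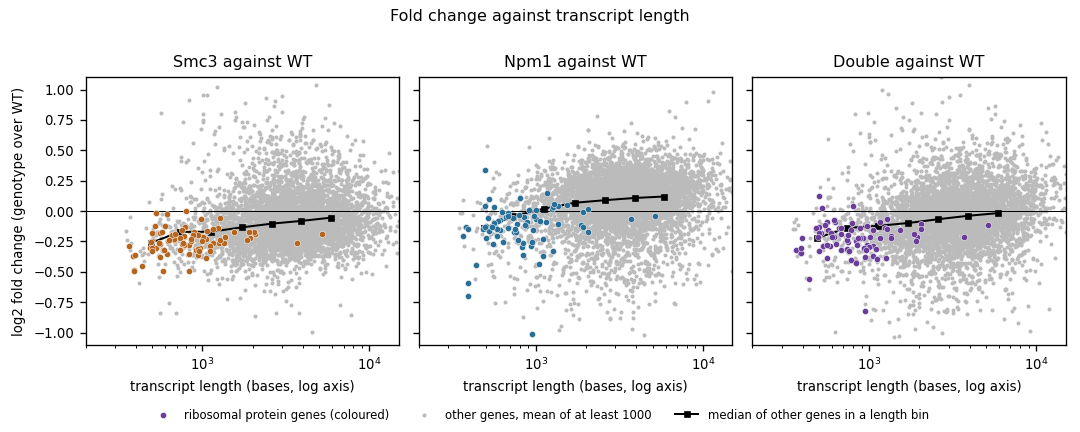
Log2 fold change over WT (vertical axis, genes beyond ±1.1 not drawn) against transcript length in bases (log axis) for ribosomal protein genes (coloured) and other genes with a mean of at least 1000 (grey), with the median of other genes in length bins of at least 20 genes (black). The black line lies lowest at short lengths in all panels, and the members spread around it, with other short genes at a median of -0.26 in Smc3 HSPCs.

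Some lists of cell type markers also held called genes in the same comparisons. Of 9 tested erythroid genes 6 were lower in Smc3, 3 lower and 1 higher in Npm1, and 8 lower in Double HSPCs, with medians of -0.53, -0.07 and -0.78 in the authors' deposited tables. Their summed level was 60169 in Smc3 HSPCs against 83522 in WT, 81559 in Npm1 against 67404 in WT, and 62060 in Double against 85986 in WT, as implied by means and fold changes. Car2, the most abundant gene of the list, was the 1 called higher in Npm1 HSPCs (0.53 ± 0.09), and without it, a choice made after seeing the data, the sums were 21886 in Smc3 against 34357 in WT, 24326 in Npm1 against 27678 in WT and 19342 in Double against 35218 in WT, per the authors' deposited tables. All 7 basophil and mast cell markers were higher in Smc3 HSPCs, 5 were lower in Npm1 and 2 higher in Double in the authors' deposited tables. The summed level of the basophil and mast cell list was 41368 in Smc3 HSPCs against 21866 in WT, 9028 in Npm1 against 12689 in WT, and 22817 in Double against 18292 in WT. Neutrophil markers were higher in 3 of 5 tested genes in Smc3 and 4 of 4 in Double HSPCs and called in none of 5 in Npm1. The list holds 10 genes, and the others had no adjusted p in the comparison concerned. The summed level, which takes in all 10, was 173976 in Smc3 against 117865 in WT, 58663 in Npm1 against 80597 in WT and 160969 in Double against 116721 in WT. Monocyte and dendritic markers were higher in 2 of 8 in Smc3 and 3 of 8 in Double HSPCs, with none called in Npm1. T and NK cell markers were higher in 3 of 7 in Smc3 and 2 of 7 in Double and lower in 1 of 7 in Npm1 HSPCs. Stromal and endothelial markers were higher in 2 of 7 in Smc3 and 1 of 8 in Double and lower in 1 of 7 in Npm1 HSPCs, and of the B cell markers 1 of 6 was called, lower in Double. Stem and progenitor markers were present, Kit and Myb among them, and 4 of 9 were higher in Smc3 HSPCs, 1 of 8 lower in Npm1 and 3 of 9 higher in Double. Of all genes tested, 7.94% were higher and 6.6% lower in Smc3 HSPCs. The shares were 9.1% and 9% in Npm1, and 8.87% and 9.82% in Double HSPCs. Where 1 marker was called in a direction, it made up 11.1% to 16.7% of its tested list, and such a call does not by itself show a shift of the list. Of the erythroid list Ahsp is not listed in the tables, and none of the listed members was at 0. The part of cell composition in the ribosomal protein values was not tested.

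Of the 80 members 4 are X-linked and 76 autosomal in the RefSeq gene table. Rpl10, Rpl36a, Rpl39 and Rps4x had a median of -0.05 in Smc3, -0.09 in Npm1 and -0.10 in Double HSPCs, with 0 called in the authors' deposited tables. At an unadjusted p under 0.05 the count was 1 in Smc3 HSPCs (Rpl36a) and 0 in the others. The 73 tested autosomal members had medians of -0.25, -0.12 and -0.22. The sum of Y-linked reads given above differed between the same groups, and its part in these values was not tested.

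Direct differences between the genotype groups were taken from the deposited fold changes, by a normal z test that adds the squared standard errors as its variance, with Benjamini-Hochberg adjustment over all genes. As WT enters both fold changes, this variance is too large and the test is conservative. Of 79 members with a value, 0 differed between Double and Npm1 HSPCs, where 6.99% of 18343 genes did. The median difference was -0.10 and 2 members had an unadjusted p under 0.05, Rps2 at -0.30 ± 0.12 and Rplp0 at -0.27 ± 0.11. When the WT share was taken out of the variance, those 2 passed with adjusted p of 0.00941 and 0.0186. With that variance 3445 of the 18343 genes were called, and 1666 of the 5034 genes with a mean of at least 1000.

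Between Double and Smc3 HSPCs 0 of 79 members differed, where 0.262% of 18729 genes did, and 0 members had an unadjusted p under 0.05. The median difference was 0.02. For Rpl37 the difference was 0.07 ± 0.17 (95% interval -0.27 to 0.41) and for Rps2 -0.05 ± 0.13 (-0.30 to 0.20). Differences inside these intervals were not detectable, and the missing calls do not show that the groups were alike.

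Between Smc3 and Npm1 HSPCs 1 of 79 members differed, where 13.9% of 18282 genes did. Rps27l was lower in Smc3 than in Npm1 HSPCs, with a difference of -0.52 ± 0.18 (95% interval -0.87 to -0.17, adjusted p = 0.0336), with fold changes over WT of -0.18 and 0.34 in the authors' deposited tables. Unadjusted, 10 members had a p under 0.05, 9 of them lower in Smc3 HSPCs, among them Rpl7a at -0.32 ± 0.12 (adjusted p = 0.0596) and Rplp1 at -0.34 ± 0.14 (adjusted p = 0.0765). Rps4l lay the other way at 0.82 ± 0.32 (adjusted p = 0.0639). When the WT share was taken out of the variance, 10 members passed, 9 lower in Smc3 HSPCs and Rps4l higher. With that variance 5231 of the 18282 genes were called, and 2433 of the 5032 genes with a mean of at least 1000. The median over the members was -0.12, against -0.20 over genes with a mean of at least 1000.

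**Figure D5:**
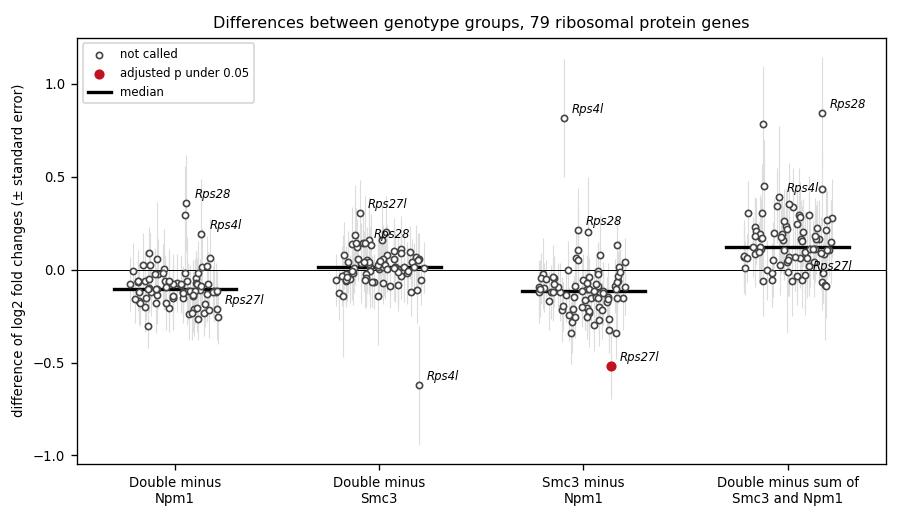
Difference of log2 fold changes with its standard error (vertical axis) for 79 members in 4 contrasts: Double minus Npm1, Double minus Smc3, Smc3 minus Npm1, and Double minus the sum of Smc3 and Npm1; black bars are medians. Rps27l in Smc3 minus Npm1, at -0.52, is the filled point, and the medians are -0.10, 0.02, -0.12 and 0.12.

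The Double group was also set against the sum of the fold changes of the groups with 1 lesion. No member differed from that sum by the z test, of 79, and 0% of 18147 genes did. Unadjusted, 3 members had a p under 0.05, Rps28 at 0.84 ± 0.30, Rps29 at 0.78 ± 0.32 and Rpl37 at 0.43 ± 0.20, and when the WT share was taken out of the variance 0 passed. The median was 0.12, and 66 of 79 members lay above 0. WT enters this contrast through every fold change in it, so the shared direction of the members is not independent of the 3 WT libraries. For Rpl37 the values behind it were -0.42 in Double against -0.49 in Smc3 and -0.36 in Npm1 HSPCs in the authors' deposited tables.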

How the data were processed

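RNA-seq of 12 mouse HSPC libraries was aligned by the authors with STAR to genome build mm9 and compared with DESeq2, per the submitters' processing notes. The read counter is not given in the sources used here. Poly(A) libraries were made from total RNA with the NEBNext Ultra II RNA kit, per the labels' protocols, a kit that keeps no record of strand. The authors deposited 3 comparisons with WT of 33018 RefSeq transcripts each, in which, per the file headers, the mean of normalized counts is a signal value (counts divided by library size factors). Each log2 fold change with its standard error is a moderated estimate by the authors, per the file headers. The score is the Wald statistic the authors deposited, and the p-values, adjusted and not, are those of the authors' Wald test, per the file headers.

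Each symbol was represented by its transcript of highest mean across the 3 comparisons (24016 genes, of which 4911 had several transcripts), and 53 symbols that stood as dates were restored through their accessions. Intervals are 95% normal intervals from the authors' standard errors. Differences between groups were tested with scipy 1.17.1 and statsmodels 0.14.6, and the z test was checked on simulated data. Size factors were read from transcripts whose values are those of single reads, and depth is the size factor times the summed means. Length and GC content were those of GENCODE M21 models (GRCm38), found for 99.2% of genes and all 80 members, and start regions from RefSeq on GRCm38.p6, so no coordinates of the authors' build are given. Trends were lowess fits (span 0.3) over genes with a mean of at least 50.

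The members, gene lists, tests and rule for named genes were chosen with earlier results of these data known. Named with full values are, per comparison, the 12 called members with the largest change in each direction and the members nearest the threshold. Also named are those highest and lowest by mean, Rps19, Rpl5, Rpl11, Rps14 and Rplp0. The narrow-range or second-copy paralogs (Rpl3l, Rpl10l, Rpl39l and Rps27l) are named too, with up to 4 genes with the smallest p of each other list. A few genes that this rule names are not reported here. Other members, such as Rpl10, Rps24, Rpl39, Rps2 and Rpl8, and genes of other lists were named after their values were seen. Alternatives were other thresholds, adjustment over all genes, a minimum mean, other choices of transcript, centring of the median, removal of trends on length, mean and GC content, and removal of the WT share of the variance. Leaving out Rps4l and the 4 narrow-range or second-copy paralogs, and Car2 from the erythroid list, was chosen after seeing the data.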

Additional observations from a re-analysis of the deposited data

Results flagged for a closer look

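Rps27l was the only one of 79 members whose fold changes in Smc3 and Npm1 HSPCs differed in a test of the difference itself. The difference, Smc3 minus Npm1, was -0.52 on the log2 scale (standard error 0.18, normal z test, Benjamini-Hochberg adjusted p = 0.0336 over 18282 genes). Against WT it stood at -0.18 ± 0.13 in Smc3 and 0.34 ± 0.12 in Npm1 HSPCs in the authors' deposited tables. The call did not pass at an adjusted p under 0.01, after the length trend was removed (adjusted p = 0.0506), with the median difference of all genes set to 0 (adjusted p = 0.0838) or after the GC trend was removed (adjusted p = 0.123). Adjusted p was 0.0361 over symbols with 1 transcript and 0.000880 when the WT share was taken out of the variance. The tables give no values per library, so how many libraries show this direction cannot be given, and no group could be searched for a library far from the others.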

How the results depend on the processing

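The counts of called members depended on several settings, while the medians stayed below 0 in every alternative run. At an adjusted p under 0.01, 9 members were lower in Smc3, 8 in Npm1 and 11 in Double HSPCs, and 0 differed between Smc3 and Npm1. Adjustment over all genes with a p left 17 in Smc3 HSPCs. Removal of the length trend left 1 in Smc3 and 9 called in Double HSPCs and 0 for Smc3 minus Npm1. Of all genes, 13.6% were then called in Smc3 and 17.7% in Double HSPCs. Removal of the mean trend gave 2 in Smc3 (median -0.0745), 25 in Npm1 and 5 in Double HSPCs (median -0.0956). The shares of all genes called with it were 9.62%, 15.4% and 16.5% in the same order. Removal of the GC trend left 13 in Double HSPCs and gave 4 for Smc3 minus Npm1. When the WT share was taken out of the variance, 2 members differed for Double minus Npm1 and 10 for Smc3 minus Npm1. Of all genes, 3445 of 18343 and 5231 of 18282 were then called, in that order. The cause of the changes in these counts was not tested.

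Values that were not called in the comparison concerned changed sign as follows. Without the length trend, Smc3 values became 0.0354 for Rps14 and 0.000913 for Rps27l, and the Npm1 value of Rps14 became 0.0464. Without the mean trend, Smc3 values became 0.0560 for Rpl4, 0.00839 for Rplp0 and 0.0645 for Rps14, the Npm1 value of Rplp0 -0.00838 and the Double value of Rpl4 0.0172. Without the GC trend the Npm1 value of Rpl4 became -0.0241. For Double minus the sum, Rps27l became 0.00534 with the median set to 0 and 0.0452 without the GC trend. Over 67 single-gene results and 580 settings, 484 kept their direction and side of the threshold, 78 no longer passed, 4 newly passed and 3 without a test moved.

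Without Rps4l and the 4 paralogs Rpl3l, Rpl10l, Rpl39l and Rps27l, 27 of 75 members were lower in Smc3, 12 in Npm1 and 19 in Double HSPCs. This leaves out Rps27l, the only member called higher, so 0 were higher in any comparison. No paired analysis was possible because the tables hold no values per library, and for the same reason no library could be left out. Standard errors near 0.11 limit what single members can show.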
